A study of Mus musculus with 6 samples.

Results

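The integrated stress response was followed through the mRNA of 10 genes that regulate it or carry out its effects: Atf4, Ddit3, Trib3, Chac1, Atf3, Atf5, Cebpb, Sesn2, Ddit4 and Nupr1. Their rows were taken by gene name, with no threshold on measured values, and all 10 were found among the 19613 genes of the table. The samples were 6 Affymetrix mouse exon arrays, each of a culture of embryoid bodies containing spinal motor neurons. The embryoid bodies were grown from HBG3 mouse embryonic stem cells, a single line in which the promoter of Hb9 (Mnx1), a motor neuron gene, drives a green fluorescent protein. Every culture had been exposed to blood fluid, called plasma in the labels and serum in the title of the series, from presymptomatic male carriers of the transgene of strain B6CBA-Tg(HDexon1)62Gpb/3J, a mouse model of Huntington's disease that expresses part of human huntingtin. The labels give this as 1 group with replicates numbered 2, 4, 5, 6, 7 and 8, and arrays from cultures with control serum were not analysed here, so the values describe how the genes stood and varied within 1 condition. Whether each replicate was the blood of a different mouse or a repeat of the same one is not given in the labels. The spread between arrays may therefore be technical, or may include differences between animals, cultures and hybridisations, which cannot be told apart.

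The integrated stress response begins when one of the kinases PERK, GCN2, PKR or HRI phosphorylates the translation initiation factor eIF2, which slows protein synthesis as a whole and at the same time favours translation of a few mRNAs, among them that of the transcription factor ATF4. ATF4 pairs with other basic leucine zipper proteins of the C/EBP and ATF families and activates genes for amino acid supply, tRNA charging and redox balance, and with prolonged stress the factor CHOP, the product of Ddit3, joins it. In motor neurons the pathway is known for its activation by misfolded protein in the endoplasmic reticulum, through PERK. Since eIF2 phosphorylation acts on translation, the amount of ATF4 protein can change with little change of Atf4 mRNA, and these arrays measured mRNA alone.

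ATF4 acts through a composite C/EBP-ATF response element, searched here as the letters TGATGNAA on either strand of the RefSeq promoter windows, which run from 250 bases before to 50 bases after each gene start (assembly GRCm38.p6). This motif was found in 3.97% of 32851 windows and in 4.51% of 27025 genes. Of the 10 stress response genes, all of which had a window, 4 held a match. In Chac1, Atf3 and Nupr1 it lay upstream of the start, as TTGCATCA, and these windows are printed below from 250 bases upstream to the start, in the direction of the gene, because these 3 genes carry identical letters. The Atf4 window, in which the motif was not found, is printed beside them. Capitals mark the match.
Chac1, chr2:119350992-119351241, plus strand: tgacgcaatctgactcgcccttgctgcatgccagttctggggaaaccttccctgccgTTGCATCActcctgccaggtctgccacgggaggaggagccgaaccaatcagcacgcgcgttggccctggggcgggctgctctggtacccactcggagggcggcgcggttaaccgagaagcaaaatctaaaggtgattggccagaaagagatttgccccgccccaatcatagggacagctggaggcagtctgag
Atf3, chr1:191183334-191183583, minus strand: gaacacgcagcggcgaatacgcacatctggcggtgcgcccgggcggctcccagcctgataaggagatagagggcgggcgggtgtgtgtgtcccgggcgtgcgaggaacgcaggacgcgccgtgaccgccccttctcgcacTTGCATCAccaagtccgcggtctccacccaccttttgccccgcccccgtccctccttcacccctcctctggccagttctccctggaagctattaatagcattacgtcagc
Nupr1, chr7:126625471-126625720, minus strand: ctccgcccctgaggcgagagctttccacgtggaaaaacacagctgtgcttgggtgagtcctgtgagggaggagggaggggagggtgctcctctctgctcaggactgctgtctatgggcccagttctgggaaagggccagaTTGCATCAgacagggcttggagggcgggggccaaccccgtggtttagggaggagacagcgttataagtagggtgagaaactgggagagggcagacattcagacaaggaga
Atf4, chr15:80254934-80255183, plus strand: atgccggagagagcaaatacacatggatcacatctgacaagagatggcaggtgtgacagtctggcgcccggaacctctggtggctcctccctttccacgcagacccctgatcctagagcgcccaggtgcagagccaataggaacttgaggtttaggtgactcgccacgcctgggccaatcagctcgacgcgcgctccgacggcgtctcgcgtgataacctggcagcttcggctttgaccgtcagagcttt

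The match spanned positions -193 to -186 from the start in Chac1 and -110 to -103 in both Atf3 and Nupr1. In Trib3 it was TTACATCA, at 14 to 21 bases after the start. Of the other letters searched, TGACGTCA, the full cAMP response element, was found in 1.79% of windows, in 2.03% of all genes and in 0 of the 10. CCACG, part of the ER stress response element, was found in 32.8% of windows, in 35.5% of all genes and in 7 of the 10. ACGTG, the core of the hypoxia response element, was found in 19.6% of windows, in 21.8% of all genes and in 3 of the 10. CCACG and ACGTG can overlap and did so in Nupr1. Among related genes with a window in the same table, the C/EBP-ATF letters were present in 5 of 7 aminoacyl-tRNA synthetase genes, in 2 of 7 amino acid transporters, in 2 of 10 genes of amino acid synthesis and in 0 of 12 targets of ATF6 and XBP1. A match of letters is a description of the window, and binding was not measured.

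**Figure D1:**
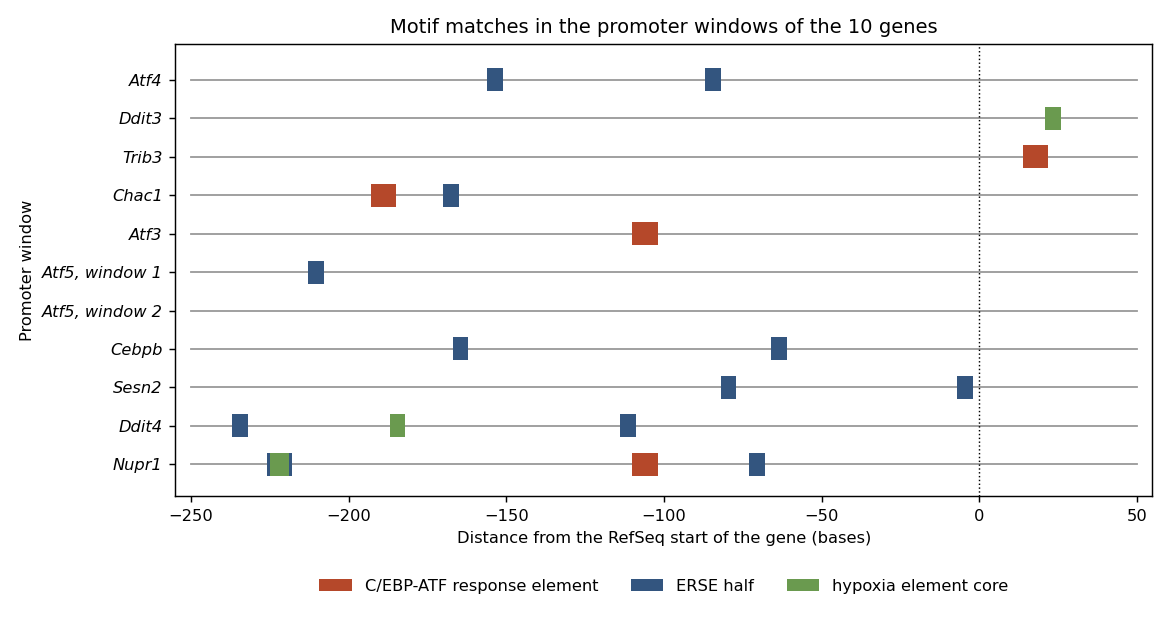
Positions of motif matches in the promoter windows of the 10 genes (x axis, bases from the RefSeq gene start, dotted line at the start; 1 row per window, with both windows of Atf5). Red blocks mark the C/EBP-ATF response element, which was found upstream of the start in Chac1, Atf3 and Nupr1 and downstream of it in Trib3.

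All values below are log2 of the intensity, which the authors deposited as 1 normalized value per gene and array. A gene was called above background when its mean over the arrays was higher than 95% of the means of 1032 olfactory receptor genes, a log2 intensity of 7.47, and 12793 genes (65.2%) were. All 10 stress response genes passed, on every array. The array medians lay between 296 and 311 on the intensity scale, and replicate 8 had the lowest array median (8.21 on the log2 scale, the others 8.25 to 8.28), the lowest lower quartile (6.77 against 6.92 to 7.02) and the lowest olfactory receptor median (5.44 against 5.49 to 5.61). For the results that lean most on this array the value without it is given as well. The 7 motor neuron markers that were matched were all above background, with a mean log2 intensity between 9.10 in replicate 4 and 9.28 in replicate 8, and so were 5 of 6 glial, 6 of 9 non-neural, 2 of 6 pluripotency and 1 of 4 blood markers that were matched. The embryoid bodies hold several cell types, so fewer cells of a type and less RNA per cell cannot be told apart in any value below.

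Among the transcription factors, Atf4, the central factor of the pathway, had log2 intensities of 11.43, 11.68, 11.43, 11.62, 11.54 and 11.38 in replicates 2, 4, 5, 6, 7 and 8. It was highest in replicates 4 and 6 and lowest in replicate 8, with a mean of 11.51 ± 0.12 (SD, n = 6) and a highest array 1.23-fold over the lowest. Ddit3, which encodes the pro-apoptotic factor CHOP, had 9.53, 9.51, 9.63, 9.27, 9.29 and 9.21 in the same order. Here the arrays fell into a higher set, replicates 2, 4 and 5, and a lower set, replicates 6, 7 and 8, with no value between 9.29 and 9.51, and the mean was 9.41 ± 0.17 (SD, n = 6).

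Atf3, a stress-induced factor that can repress as well as activate, had 9.86, 9.998, 9.75, 9.63, 9.59 and 9.52 in the 6 replicates. Replicate 4 was the highest and replicate 8 the lowest, a 1.39-fold range, around a mean of 9.72 ± 0.18 (SD, n = 6). Atf5, whose mRNA is, like that of ATF4, translated preferentially under eIF2 phosphorylation, had 10.12, 10.30, 10.04, 10.07, 9.87 and 9.95, and was highest in replicate 4 and lowest in replicate 7 (mean 10.06 ± 0.15, SD, n = 6). Cebpb, a C/EBP factor that can dimerize with ATF4 and CHOP, had 8.24, 8.20, 8.54, 8.13, 8.18 and 8.06. Replicate 5 stood above the other arrays, which lay within 8.06 to 8.24, and the gap to its neighbour was 0.615 of the whole range, just under the critical value of Dixon's ratio for 6 values. Cebpb had a mean of 8.22 ± 0.17 (SD, n = 6), with an SD of 0.0712 without replicate 5. Its lowest array was 0.59 above background, and with background placed at the 99th percentile of the olfactory receptor genes it no longer passed.

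The effectors held both the narrowest and the widest spread of the 10 genes. Trib3, a pseudokinase that is induced by ATF4 and CHOP and feeds back on ATF4, had 10.03, 10.13, 10.05, 9.95, 9.91 and 9.93 in replicates 2, 4, 5, 6, 7 and 8. It had the smallest spread of the 10 genes, with an SD of 0.086 and a highest array 1.17-fold over the lowest, and it separated the arrays as Ddit3 did, replicates 2, 4 and 5 over replicates 6, 7 and 8. Chac1, the enzyme that breaks down glutathione, had 12.40, 12.50, 12.48, 12.45, 12.29 and 12.09. Replicates 2, 4, 5 and 6 lay close together, and replicates 7 and 8 lay below them (mean 12.37 ± 0.15, SD, n = 6). Without replicate 8 the SD was 0.0849.

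Nupr1, a small stress-induced chromatin protein, had log2 intensities of 9.29, 9.71, 9.54, 9.59, 9.06 and 8.97, or intensities from 502 to 838 on the linear scale. Its spread was the widest of the 10, with an SD of 0.30, a coefficient of variation of 20.3% and a highest array 1.67-fold over the lowest. Replicates 4, 5 and 6 were high and replicates 7 and 8 low, as for Chac1, with replicate 2 between them. Of all genes above background, 0.555% had a larger SD, and of the genes in the same of 4 bins of level 0.313% did.

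The 2 inhibitors of mTORC1 signalling followed other orders of arrays. Sesn2, the leucine sensor sestrin 2, had 10.93, 10.98, 11.12, 10.87, 10.77 and 10.88, highest in replicate 5 and lowest in replicate 7 (mean 10.92 ± 0.12, SD, n = 6), with an SD of 0.077 without replicate 5. Ddit4, which encodes REDD1 and is also a target of hypoxia and of glucocorticoids, had 10.88, 10.96, 10.57, 10.93, 10.64 and 10.74. In contrast to Sesn2, replicate 5 was its lowest array, and replicates 2, 4 and 6 were its highest (mean 10.79 ± 0.16, SD, n = 6).

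**Figure D2:**
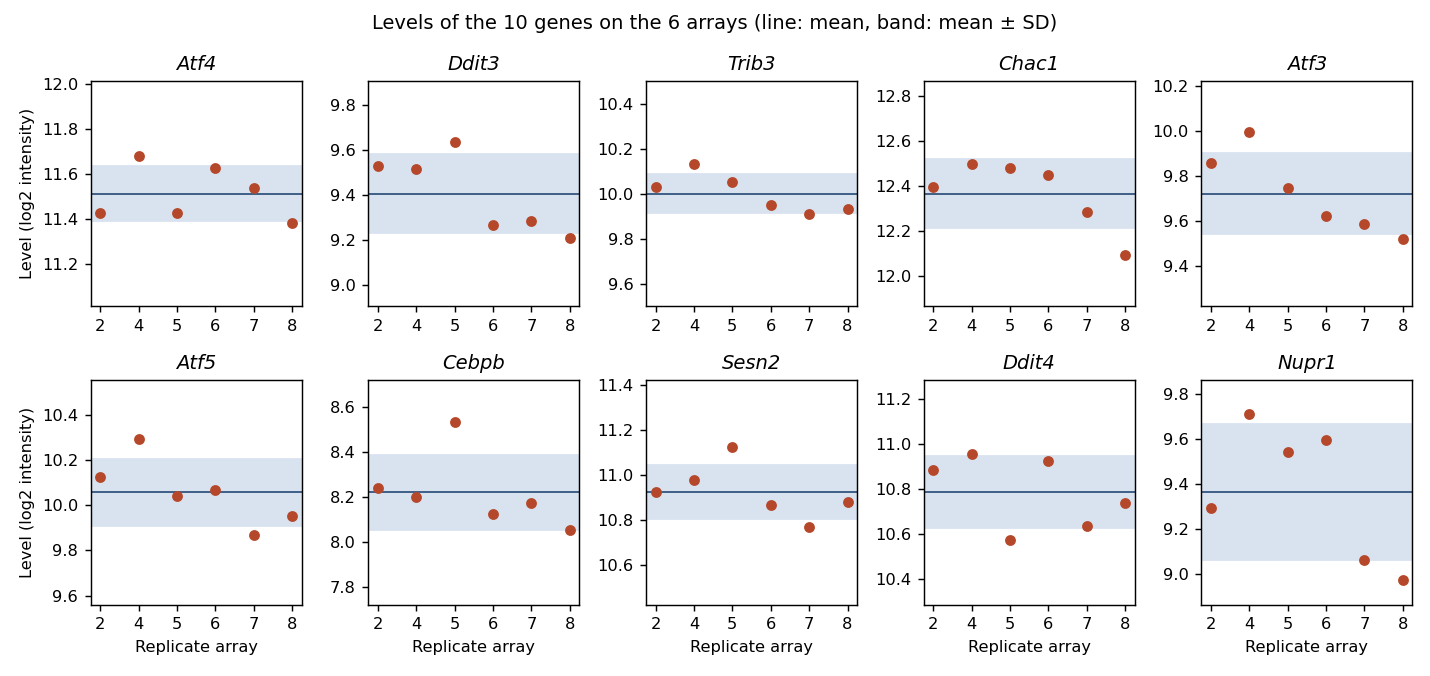
Log2 intensity (y axis, each panel spanning the same number of log2 units) of the 10 stress response genes on the 6 replicate arrays (x axis), with the mean as a line and the mean ± SD as a band. Nupr1 spans the widest range, from 8.97 to 9.71, and 7 of the genes have their highest point in replicate 4.

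The spread of the 10 genes lay above that of most genes. Their median SD was 0.157, with a range from 0.086 to 0.302, beside a median of 0.076 and an upper quartile of 0.111 over all genes above background. All 10 exceeded the median, also within their own bin of level, and 9 exceeded the upper quartile, the exception being Trib3. Without replicate 4 or without replicate 5, 9 of the 10 exceeded the median. The same arrays were often extreme. Replicate 4 was the highest array for 7 genes and replicate 5 for the other 3, Ddit3, Cebpb and Sesn2, while the lowest array was replicate 8 for 6 genes, replicate 7 for 3 and replicate 5 for Ddit4. Of all genes above background, 14.7% were highest in replicate 4 and 20.4% in replicate 5, and 26.4% were lowest in replicate 8 and 17.9% in replicate 7. Relative to its own mean over the arrays, a gene was on average 0.16 higher in replicate 4 and 0.08 higher in replicate 5, and 0.12 lower in replicate 7 and 0.16 lower in replicate 8 (log2). In replicate 8, 0 of the 10 genes lay above their own mean, and in replicate 7 only Atf4 did, where 53.1% and 47.3% of all genes above background did.

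To describe how the genes covaried, Pearson's r and Spearman's rho were taken over the 6 arrays for each of the 45 pairs, with 2-sided exact permutation tests over the 720 pairings of arrays, whose smallest possible p is 0.00139. The median r was 0.574, with a range from -0.51 to 0.941, and 39 pairs had an r above 0. Over all pairs of genes above background the median r was -0.0006, and 15.9% of those pairs had an r of 0.574 or more. An unadjusted exact p under 0.05 for r was reached by 6 pairs, all with an r above 0 (11 pairs under quantile normalization and 11 under a loess correction). By rho, 4 of these 6 pairs reached it too. Of the relations between these genes and all other genes above background, 2.96% reached it by r with an r above 0 and 3.14% with an r below 0. When the p-values of each gene with all other genes above background were adjusted by the Benjamini-Hochberg method, 0 relations passed 0.05 for any of the 10 genes, the lowest adjusted p of the exact permutation test being 0.404, with Chac1. The pairs below are therefore given by size and by how they held as arrays were left out.

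The factor CHOP and its dimer partner C/EBPβ formed 1 such pair. Ddit3 and Cebpb had an r of 0.852 (exact permutation p = 0.00139, adjusted p = 0.433) and ordered the 6 arrays identically, with a rho of 1 (exact p = 0.00278). Without the 2 arrays farthest from the median r was 0.882, and with any 1 array left out it was at least 0.799. Ddit3 also went with Sesn2, at an r of 0.831 (exact permutation p = 0.0222, adjusted p = 0.594), although rho was 0.714 (exact p = 0.136). The third pair of this trio, Cebpb and Sesn2, had an r of 0.822 (exact permutation p = 0.0653) that fell to 0.298 without replicate 5, in which all of Ddit3, Cebpb and Sesn2 were highest.

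Chac1 and Nupr1 were, of the 6 pairs, the one least changed by leaving out arrays. Their r was 0.921 (exact permutation p = 0.00278, adjusted p = 0.423) and their rho 0.943 (exact p = 0.0167). It was 0.923 without the 2 farthest arrays, and the lowest value with 1 array left out was 0.914. Both were low in replicates 7 and 8, but the relation did not rest on either of these arrays alone.

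Trib3, Atf3 and Atf5 formed a trio in which every pair had an unadjusted exact p under 0.05 for r. Trib3 and Atf3 had the highest r of all 45 pairs, 0.941 (exact permutation p = 0.0111, adjusted p = 0.777), with a rho of 0.886 (exact p = 0.0333). For Atf3 and Atf5 r was 0.901 (exact permutation p = 0.0139, adjusted p = 0.91) and for Trib3 and Atf5 it was 0.892 (exact permutation p = 0.0153, adjusted p = 0.84). Their rho was 0.886 (exact permutation p = 0.0333) and 0.829 (exact permutation p = 0.0583). Replicate 4, the highest array for all of these genes, carried part of the relation, since without it r was 0.866, 0.765 and 0.742 for the 3 pairs. Without the 2 arrays farthest from the median, r was as low as 0.568 for Atf3 and Atf5 and 0.579 for Trib3 and Atf5.

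Atf4 itself was among the least tied to the others. Its mean r with the other 9 genes was 0.284, against 0.665 for Trib3, 0.646 for Nupr1, 0.642 for Atf3, 0.634 for Chac1 and 0.631 for Atf5. Its highest r was 0.647 with Nupr1 (exact permutation p = 0.175), and none of its 9 pairs passed. With Ddit3, r was -0.05 (exact permutation p = 0.951), a sign that turned to 0.02 under quantile normalization and to 0.06 under a loess correction, so no direction can be given for this pair. With Sesn2 and Cebpb, r was -0.18 and -0.22, and these signs turned too, to 0.197 and 0.283 without replicate 5. The values of 0.305 with Trib3, 0.402 with Atf3 and 0.511 with Atf5 became -0.41, -0.21 and -0.05 without replicate 4. In the arrays these values reflect, Atf4 was high in replicates 6 and 7, relative to its own mean, where Ddit3 was low, and low in replicates 2 and 5, where Ddit3 was high.

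Ddit4 had the lowest mean r of the 10 genes, at 0.235, and 1 array decided it. With Cebpb r was -0.51, with Sesn2 -0.18 and with Ddit3 -0.08, and without replicate 5, where Ddit4 was lowest and the other 3 were highest, these became 0.331, 0.831 and 0.586. Without that array the median r over the 45 pairs was 0.718, and without replicate 8 it was 0.495. What set replicate 5 apart for these genes was not tested.

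**Figure D3:**
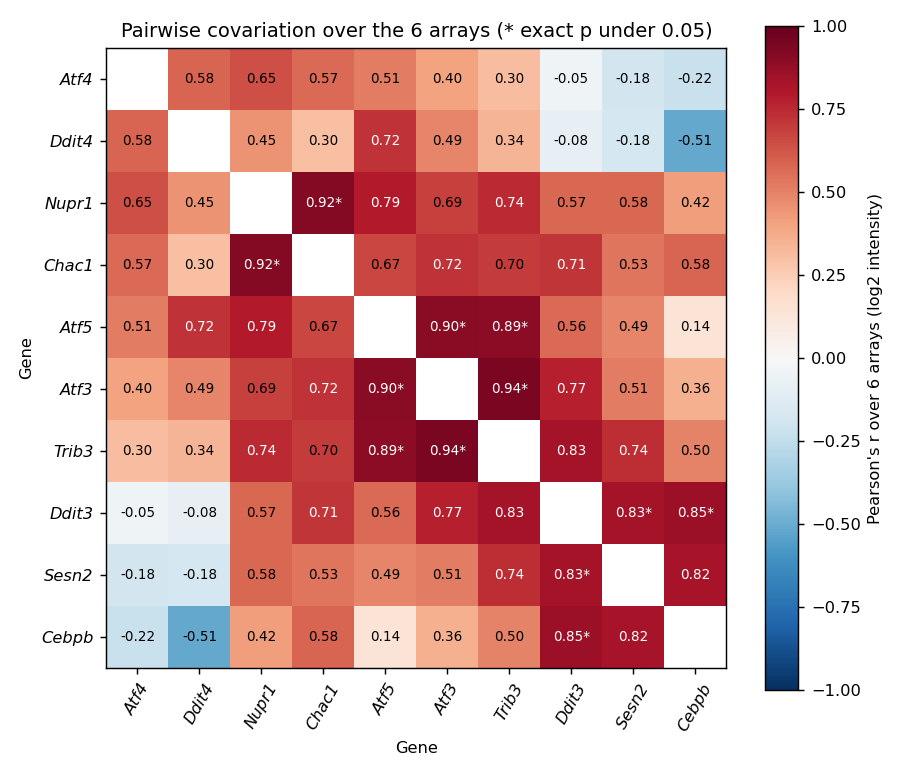
Pearson's r over the 6 arrays for each pair of the 10 stress response genes (both axes list the genes, the colour and the printed value give r of the log2 intensities, and an asterisk marks an unadjusted exact permutation p under 0.05). Values below 0 occur where Atf4 or Ddit4 meets Ddit3, Sesn2 or Cebpb, though Atf4 with Ddit3 turns above 0 under quantile normalization and loess, and the 6 marked pairs have an r of 0.831 or more.

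The same covariation was then followed into the genes of the pathway, from its input to its targets. For each list, the mean r of a gene with the 10 stress response genes is given, beside the count of its relations with them that had an unadjusted exact p under 0.05. Over all 12783 other genes above background the median of this mean r was 0.049, and, as above, 2.96% of relations were called with an r above 0 and 3.14% with an r below 0. The genes of a list share arrays and a set of 10 correlated partners, so these counts are descriptions and not independent results.

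At the input of the pathway and among the basic leucine zipper partners the called relations were all above 0, in shares of 6.67% to 10%. For a list of eIF2 kinases, phosphatase subunits and other regulators, Impact among these last, 5 of 70 relations (7.14%) over 7 genes were called. Eif2ak2 (PKR) was below background, and the median of the mean r was 0.12. Of these 5 relations 3 were of Ppp1r15a and 2 of Impact, so none was of a kinase. The gene with the highest mean r was Ppp1r15a, the inducible phosphatase subunit GADD34 and itself a target of the pathway, at 0.648, whereas Eif2ak1 (HRI) had -0.38 and Eif2ak3 (PERK) -0.29. Subunits of eIF2 and of its exchange factor eIF2B had a median of 0.23, with 8 of 80 relations (10%) called, and ranged from -0.35 for Eif2s3x to 0.678 for Eif2b4. Among 9 other basic leucine zipper partners, with 6 of 90 relations (6.67%) called, the median was 0.10, with Cebpg, which encodes a C/EBP partner of ATF4, at 0.643 and Atf2 at -0.29.

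For the metabolic targets of ATF4 a larger share was called, all of it above 0. Of 110 relations of 11 genes of amino acid synthesis, 34 (30.9%) were called with an r above 0 and 0 with an r below 0, and the median of the mean r was 0.67. The highest were Shmt2, the mitochondrial serine hydroxymethyltransferase, at 0.737 and Cth, which makes cysteine from cystathionine, at 0.72, and the lowest were Mthfd2 at 0.553 and Mthfd1l at 0.511, both of mitochondrial folate metabolism. Cth had log2 intensities of 10.79, 10.86, 10.84, 10.62, 10.39 and 10.32 in replicates 2, 4, 5, 6, 7 and 8, highest in replicates 2, 4 and 5 and lowest in replicates 7 and 8.

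For 10 amino acid transporters, 36 of 100 relations (36%) were called above 0 and 0 below, with a median of 0.69. Slc6a9, a glycine transporter, had the highest mean r at 0.731, then Slc38a2, a carrier of small neutral amino acids, at 0.714, and Slc1a4 had the lowest at 0.533. Slc6a9 had 11.82, 11.91, 11.78, 11.75, 11.60 and 11.57 in the 6 replicates, again highest in replicate 4 and lowest in replicates 7 and 8. Of the 120 relations of 12 aminoacyl-tRNA synthetases, which charge tRNAs with amino acids, 25 (20.8%) were called above 0 and 0 below. Their median was 0.59, from 0.425 for Mars to 0.711 for Aars.

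Every gene of these 3 lists had a mean r above 0, as did 6983 of the 12783 other genes above background. The mean of each list was highest in replicate 4 and lowest in replicate 8, at 11.31 and 11.04 for synthesis, 11.72 and 11.45 for transport and 11.08 and 10.89 for the synthetases (log2 intensity). Among the 10 genes, the median r was lowest with Atf4 for synthesis and with Cebpb for transport and the synthetases. The median r of the synthesis genes was 0.28 with Atf4, 0.77 with Ddit3, 0.83 with Atf3, 0.80 with Atf5 and 0.48 with Cebpb, and that of the transporters was 0.52 with Atf4, 0.88 with Atf3 and 0.35 with Cebpb. Without replicate 8 the median of the mean r was 0.60 for synthesis, 0.61 for transport and 0.50 for the synthetases, and the called relations fell to 16, 14 and 15. They were 12, 11 and 12 without replicate 7 and 14, 13 and 14 without replicate 4. Without replicate 5 the counts were 22 for synthesis and 19 for transport, and without replicate 6 that of the synthetases was 15. The fewer pairings alone can lower these counts, whereas the median of the mean r for synthesis stayed between 0.60 and 0.75.

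Other targets of ATF4 and CHOP were mixed. Of the 140 relations of 14 such genes, 12 were called above 0 and 2 below 0, with a median of 0.36. Gadd45a, a regulator of growth arrest, had a mean r of 0.70 and Sqstm1, the autophagy receptor p62, 0.644, while Map1lc3b, which encodes the autophagosome protein LC3B, had -0.50 and Bcl2l11, which encodes the cell death protein BIM, -0.22. Gdf15 and Cdsn were not above background.

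The targets of ATF6 and XBP1, the other branches of the unfolded protein response, gave mostly r values below 0 where a relation was called. Over 14 targets, 4 of 140 relations were called above 0 and 12 (8.57%) below 0, with a median mean r of -0.23, which became -0.04 without replicate 8. The relations called below 0 numbered 7 without replicate 2 or replicate 7 and 3 without replicate 4. The lowest values belonged to chaperones of the endoplasmic reticulum, Hsp90b1 at -0.71 and Calr at -0.70, and the highest to Sel1l, part of the degradation machinery of the endoplasmic reticulum, at 0.576 and to Xbp1 itself at 0.553. Of the 12 relations called below 0 with all 6 arrays, 5 were of Hsp90b1 and 3 of Calr. A mean r above 0 was found for 5 of the 14 targets. Hsp90b1 had 11.32, 11.26, 11.37, 11.36, 11.47 and 11.54 in the 6 replicates, so that it was lowest in replicate 4 and highest in replicate 8. Hspa5, the chaperone BiP, had a mean r of -0.26.

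Of 9 genes of cholesterol synthesis, 8 had an r below 0 with all 10 stress response genes, the exception being Sqle, which was above 0 with Ddit3, Sesn2 and Cebpb. Over all genes above background, 9.46% had an r below 0 with all 10. Of their 90 relations, 32 (35.6%) were called below 0 and 0 above 0, and the median of the mean r was -0.70. Lss and Fdft1, enzymes of sterol synthesis, both had -0.73, and Sqle, at -0.40, was the gene with the mean r nearest to 0. The mean of the list lay between 9.70 in replicate 4 and 10.17 in replicate 8. The strongest relation was with Chac1, at a median r of -0.91, and the weakest with Cebpb, at -0.45. Without replicate 8 the median of the mean r was -0.63, with 15 relations called, and 9, 19 and 12 were called without replicates 4, 5 and 7. The cholesterol list and the amino acid genes had been picked with their wide spread over these arrays already known, so these counts are not independent evidence.

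**Figure D4:**
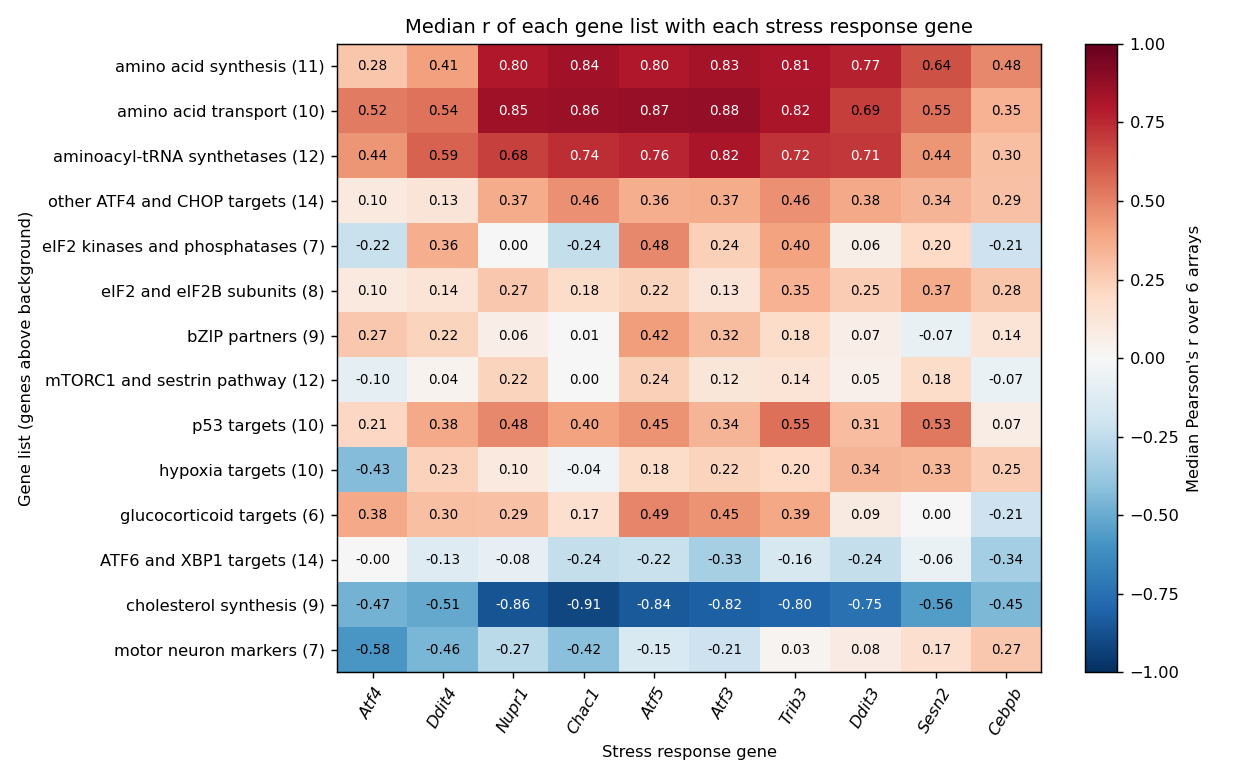
Median Pearson's r over the 6 arrays (colour and printed value) of the genes of each list (rows, with the number of genes above background) with each of the 10 stress response genes (columns). The medians of the 3 lists of amino acid supply and tRNA charging are above 0 with every stress response gene, and the median of the cholesterol genes is below 0 with every one, down to -0.91 with Chac1.

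Other pathways that share single members were also set against the 10 genes. Targets of p53, which regulates Sesn2 as well, had a median mean r of 0.38 with 9 of 100 relations called, all above 0, and ranged from -0.13 for Mdm2 to 0.644 for Ccng1. Hypoxia targets, a group that includes Ddit4, had a median of 0.16, with 2 of 100 relations called above 0 and 1 below, near the shares over all genes. In 6 glucocorticoid targets, 10 of 60 relations were called above 0 and 4 below, with Klf9 at 0.725 and Sgk1 at -0.71. For 12 genes of the mTORC1 and sestrin pathway, on which Sesn2 and Ddit4 act, the median was 0.16, with 4 of 120 relations called above 0 and 6 below.

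**Figure D5:**
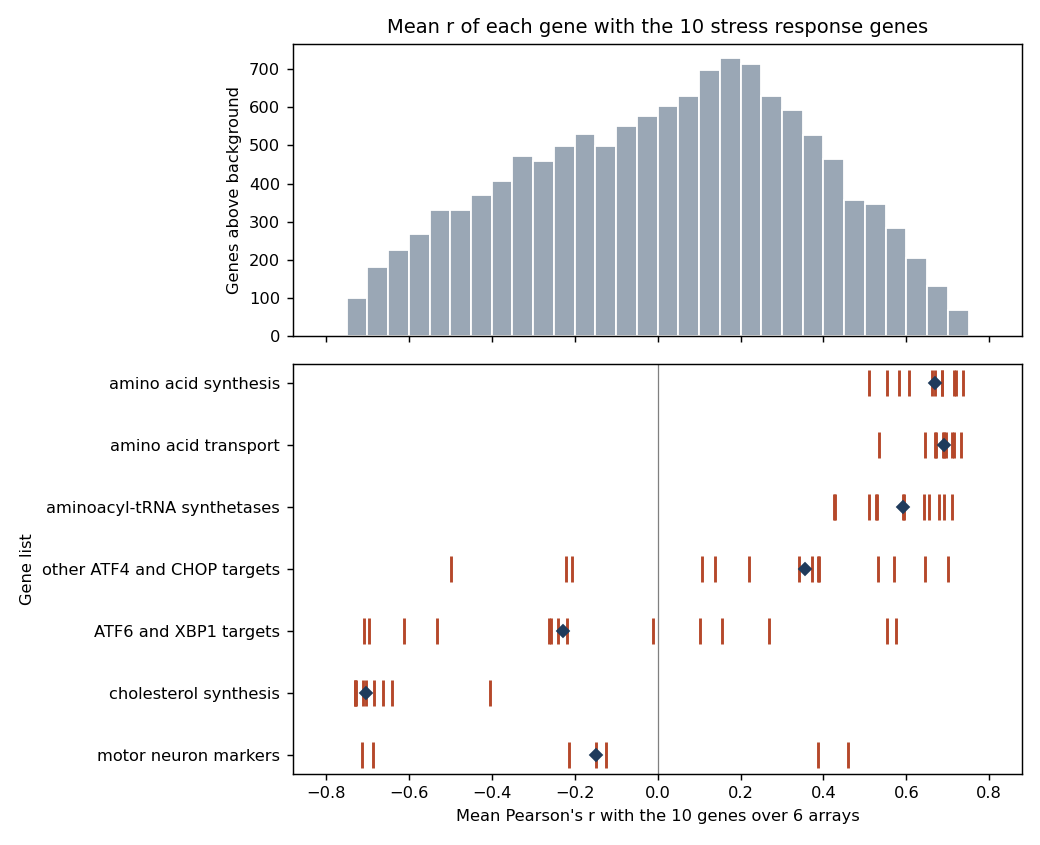
Upper panel: number of genes above background (y axis) by their mean Pearson's r with the 10 stress response genes (x axis). Lower panel: the same mean r for each gene (red tick) of 7 lists, with the list median as a diamond, which lies at 0.67, 0.69 and 0.59 for the lists of amino acid supply and tRNA charging and at -0.70 for cholesterol synthesis, beside a median of 0.049 over all genes.

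Cell content and array quality were set against the same genes. Of the 7 motor neuron markers, Slc5a7, the choline transporter, and Isl1 had a mean r with the 10 genes of -0.71 and -0.69. Lhx3 and Olig2 had 0.459 and 0.388, and the remaining markers lay from -0.21 to -0.12. Of their 70 relations 0 were called above 0 and 7 (10%) below 0, of which 5 were of Slc5a7 and 2 of Isl1. The relations called below 0 became 2, 4, 2 and 3 without replicates 4, 5, 7 and 8. The median of the mean r was -0.15 and turned to 0.19 without replicate 8. Slc5a7 had 8.86, 8.70, 8.95, 8.91, 9.21 and 9.30 in the 6 replicates, lowest in replicate 4 and highest in replicates 7 and 8, the opposite of most stress response genes. Glial markers had 3 of 50 relations called, all above 0, non-neural markers had 2 of 60 above 0 and 3 below, and the 2 pluripotency markers and the blood marker Cd68 had none. The part of cell content in the covariation of the 10 genes was not tested.

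The mean log2 intensity of Isl1, Lhx3, Mnx1 and Olig2, the motor neuron genes by which the study corrected for differences between batches of cells, lay between 9.03 in replicate 7 and 9.23 in replicate 5. Its r with the 10 genes ranged from -0.47 for Ddit4 to 0.68 for Sesn2 (exact permutation p = 0.144), with a median of 0.01. For the array median, r ranged from -0.16 to 0.786, the latter with Chac1 (exact permutation p = 0.0889), and turned to -0.44 for Chac1 without the 2 arrays farthest from the median. Without these 2 arrays it lay between -0.99 for Ddit3 and 0.107 for Atf4. For the olfactory receptor median, without its own 2 farthest arrays, it lay between -0.98 for Atf3 and -0.05 for Cebpb. For the lower quartile it lay likewise between -0.98 for Ddit4 and 0.445 for Cebpb. These values rest on 4 arrays and were not tested. Over the 4-gene mean, the array median, the lower quartile and the olfactory receptor median, 0 of 40 relations had an exact p under 0.05 with all 6 arrays. Of all genes above background 22.1%, 22.8% and 17.8% reached it with the array median, the lower quartile and the olfactory receptor median, and 4.71% with the 4-gene mean. The lowest adjusted p of the exact permutation test over all genes was 0.298 for the 10 genes. The level of the array as a whole was related to many genes. For these 10 no such relation had an exact p under 0.05 with all 6 arrays, which are too few to exclude one. The 40 relations were also taken with each of the 6 arrays left out in turn. Over all these repeats 4 single relations had an unadjusted exact permutation p under 0.05. They were Cebpb with the 4-gene mean without replicate 5 (r = -0.88), Ddit4 with the 4-gene mean (r = -0.92) and Nupr1 with the olfactory receptor median (r = 0.924) without replicate 7, and Atf3 with the lower quartile without replicate 8 (r = -0.92). With so many relations taken, some pass by chance, and the share over all genes was not computed for 5 arrays. These 4 are therefore not read as relations.

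The genes most like the 10 were sought among the 6387 others that were above background and varied at least as much as the median gene. Shmt2 had the highest mean r, at 0.737, followed by Ddr2 at 0.734, Thbs2 at 0.733, Slc6a9 at 0.731, Rbp4 at 0.729, Arhgef2 at 0.727, Klf9 at 0.725, Hhip at 0.724, and Pck2 and Mef2b at 0.723 each. The lowest were Stmn2 at -0.74, Sirpa and Ids at -0.74, and Kcnn3 and Serf1 at -0.73. With 6 arrays, an r of 1 sign with all 10 genes was common. It was above 0 throughout for 8.94% of the genes above background and below 0 throughout for 9.46%.

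The study trained a classifier for another disease model, of amyotrophic lateral sclerosis, on a set of genes, of which Atf3, Atf4 and Ddit3 are members and 38 are annotated by the study as targets of ATF4 or CHOP. Those genes were picked on other arrays. Leaving out the 10 genes themselves, 36 annotated targets were above background here, and 82 of their 360 relations (22.8%) were called above 0 and 4 (1.11%) below, with a median mean r of 0.59. Several belong to the lists above. The 91 other classifier genes above background had 66 of 910 relations (7.25%) called above 0 and 21 (2.31%) below, with a median of 0.21. Without replicate 8 these medians were 0.48 and 0.27. That of the other classifier genes was 0.096 and 0.097 without replicates 4 and 7, 0.34 without replicate 5 and 0.13 under median centring. The called relations above 0 of the annotated targets were 44, 38 and 47 without replicates 4, 7 and 8, and those of the other genes were 43, 30 and 40 without replicates 2, 4 and 7.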

How the data were processed

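RNA of 6 cultures of embryoid bodies was hybridised to Affymetrix GeneChip Mouse Exon ST arrays. Per the methods, the authors applied Robust Multi-array Averaging in Aroma Affymetrix and averaged the exons of each gene (annotation release 33). The labels name Affymetrix Expression Console and RMA. The table deposited by the authors holds linear intensity, with 1 value for each gene on each array. Which arrays were normalized together, and the genome build, are not given in the sources used here. The study screened its arrays for outliers, and the labels do not say whether these 6 had passed. The table held 0 columns of other samples.

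Here log2 was taken without a pseudocount. Background was set at the 95th percentile over olfactory receptor means. Pearson's r and Spearman's rho were tested by 2-sided exact permutation over 720 pairings, in code tested on simulated data, and adjusted by Benjamini-Hochberg over all genes above background, also for the array measures, where adjustment over those relations alone had been planned. List genes not matched by symbol or synonym (Psph, Hmgcs1, Wars, Cebpd, Jdp2 and Slc18a3 among them) were not analysed here. Promoters came from RefSeq (GRCm38.p6). A planned comparison of protein sequences was not run. The 10 genes and the lists were chosen with earlier results of these data known. All 10 genes are named, with the 10 most like and the 5 least like genes, and at most 4 genes per list, those of highest and lowest mean r. Values of Cth by array and of Hspa5 were added after they were seen. Precision is limited by the number of arrays. Alternatives were median centring, quantile normalization, loess against the mean level, a pseudocount of 50, the 99th percentile as background or no filter, and leaving out each array. Python 3.11.15, numpy 2.4.6, pandas 2.3.3, scipy 1.17.1, statsmodels 0.14.6 and matplotlib 3.10.9 were used.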

Additional observations from a re-analysis of the deposited data

How the results depend on the processing

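Of 281 values recomputed under alternatives, 243 kept their direction and moved by no more than 1.5 times for counts or, for other values, by less than the SD over arrays or the jackknife error. The levels moved by less than their SD in 70 of 70 cases, which are among the 243. This outcome was fixed in advance, since neither leaving out 1 of 6 arrays nor median centring can move a mean by its SD. The jackknife error was itself taken from the values with 1 array left out, so it is a weak yardstick for them. The median SD of the 10 genes ranged from 0.142 to 0.171 and the median r of their pairs from 0.494 under median centring to 0.718 without replicate 5. The count of pairs with an exact p under 0.05 was 6 as reported, 11 under quantile normalization and 11 under the loess correction, and between 4 and 8 with 1 array left out. Relations to array measures with an exact p under 0.05 numbered 0 of 40 as reported and between 0 and 2 of 40 with 1 array left out. The other values that moved were called relations of the gene lists and, without replicate 8, the median mean r of ATF6 and XBP1 targets and that of motor neuron markers, which was -0.15 as reported, turned to 0.19 without replicate 8 and was as low as -0.36 without replicate 7. Called relations of cholesterol genes were 19 under median centring and those of synthetases 38 under the loess correction. These list alternatives were chosen after seeing the data. The cause of these shifts was not tested, beyond the fewer pairings of 5 arrays. No paired analysis was possible because there is 1 group. With 6 arrays of 1 group, no batch labels and no control, neither the source of the covariation nor a difference from other serum can be read from these values.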
